A study of Mus musculus with 4 samples.

Results

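Retnla, Chil3, Arg1 and Ear2 were followed by gene symbol and chosen with earlier results of these data known. They are 4 of the 13036 genes listed in at least 1 of 4 single-cell libraries of mouse joint tissue. All 4 were listed on every day. The cells were CD45+CD11b+Ly6G- mononuclear cells, a gate for myeloid cells that leaves out neutrophils, sorted from the synovial tissue of hind paws. Every library came from Cx3cr1creER:tdTomato mice given tamoxifen, which switches on the red reporter tdTomato in cells that express Cx3cr1 and leaves it on in their descendants. Arthritogenic K/BxN serum was injected 4 weeks after tamoxifen, and cells were taken at steady state (day 0) and at days 1, 2 and 5 after the serum. Each day had 1 library. The number of mice behind it is not given, so a day cannot be told apart from its library. No test was therefore made: intervals are 95% and cover counting error only, and folds compare these libraries or the barcodes within 1 library.

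Macrophages exposed to interleukin-4 or interleukin-13 enter a state called alternative activation, in which the receptor chain Il4ra and the transcription factor Stat6 switch on a typical set of genes in the mouse. Retnla encodes the secreted resistin-like molecule alpha (Fizz1), Chil3 the secreted chitinase-like protein Ym1, and Arg1 arginase 1, which splits arginine into ornithine and urea. Ear2 encodes a secreted ribonuclease of the eosinophil-associated family. These genes are also made outside that state: Chil3 is known in monocytes and neutrophils, Arg1 responds to low oxygen, and Retnla is made by some resident tissue macrophages. The companions were Cd163, a scavenger receptor of interstitial macrophages, Plac8, a gene of inflammatory monocytes, Spp1, which encodes osteopontin, and Sparc, a matricellular gene of the macrophages that line the joint.

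The promoters of Retnla and Chil3 are shown because both genes belong to the classical set yet shared fewer barcodes at day 5 than independence gives. Each sequence runs 5′ to 3′ on the strand of the gene, from 250 bases before to 50 bases after its start, as given by RefSeq for GRCm38.p6. Capitals mark letters of the palindromic STAT type, TTCNNNNGAA (the spacing that Stat6 is known to prefer) or TTCNNNGAA. The Retnla window is chr16:48842359-48842658 on the plus strand and the Chil3 window chr3:106167515-106167814 on the minus strand.
Retnla: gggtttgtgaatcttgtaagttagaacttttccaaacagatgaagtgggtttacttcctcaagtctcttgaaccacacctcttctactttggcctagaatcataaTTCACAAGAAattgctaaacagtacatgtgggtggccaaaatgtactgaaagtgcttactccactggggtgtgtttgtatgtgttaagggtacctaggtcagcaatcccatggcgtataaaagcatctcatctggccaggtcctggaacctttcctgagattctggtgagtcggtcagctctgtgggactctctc
Chil3: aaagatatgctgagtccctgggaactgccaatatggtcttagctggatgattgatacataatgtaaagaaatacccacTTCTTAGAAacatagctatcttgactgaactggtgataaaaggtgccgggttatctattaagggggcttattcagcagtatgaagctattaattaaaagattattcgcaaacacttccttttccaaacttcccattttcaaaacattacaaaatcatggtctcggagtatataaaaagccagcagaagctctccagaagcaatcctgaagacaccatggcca
TTCNNNNGAA stood at bases 106 to 115 of the Retnla window and in 6.95% of 32851 promoters of equal length, and TTCNNNGAA stood at bases 79 to 87 of the Chil3 window and in 8.30% of promoters. Neither was found in the Ear2 window, chr14:44102404-44102703 on the plus strand. Both spacings read the same on the other strand. A match describes letters and is not a binding site.

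In GRCm38, Retnla lies at chr16:48842551-48844461, Chil3 at chr3:106147554-106167564, Arg1 at chr10:24915221-24927484 and Ear2 at chr14:44102654-44103534, each an annotated protein-coding gene. The kit counts the 3′ ends of transcripts, so near-identical copies can share reads. Of the windows of 50 bases in the last 400 bases of the transcripts, 0% of those of Retnla and of Arg1 were found in another gene. For Chil3 8.66% were shared with Chil4, and for Ear2 27.4% were shared with Ear1, so Ear2 values may hold reads of its copies. Chil4 was listed in no library and Ear1 at day 1 alone, with 6 UMIs (unique molecular identifiers, 1 per captured transcript).

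Barcodes entered with 500 or more genes detected and a mitochondrial share of UMIs below 10%: 3715, 4642, 2722 and 3235 at days 0, 1, 2 and 5, 14314 in all. They held between 4347517 and 18373038 UMIs per library. Day 0 was the shallow library: its median barcode held 1057 UMIs, against 3607.5 to 4183.5 on the later days, and 49.3% of its barcodes were kept against 98.8 to 99.3%. Between 13 and 53 barcode sequences were shared by any 2 libraries. Summed myeloid markers (Ptprc, Itgam, Csf1r, Adgre1, Lyz2 and Cd68) stood at 23470 to 30815 CPM (a gene's UMIs per 1000000 UMIs of the library). Eosinophil markers summed to at most 2.42 CPM, with Epx and Prg2 unlisted in every library, and neutrophil markers to 11.9 to 48.7 CPM, with Ly6g unlisted.

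Retnla was present before the serum, peaked at day 1 and was about as high at day 5 as at day 0. Day 0 had 884 CPM (interval 856 to 913), day 1 had 1628, day 2 had 839 and day 5 had 1007 CPM (991 to 1023). Relative to day 0, day 1 was 1.84-fold (1.78 to 1.90), day 2 was 0.949-fold (0.914 to 0.985) and day 5 was 1.14-fold (1.10 to 1.18). The day 5 ratio was 0.982 without the 2 barcodes that held the most Retnla, so its direction rested on them, and the day 2 ratio was 1.34 when each barcode's own CPM was averaged. Median-ratio scaling lowers the log2 ratios of all genes to day 0 by 0.17 at day 1, 0.14 at day 2 and 0.10 at day 5. Ear2 followed a like order, with 21.9, 35.2, 20.4 and 22.1 CPM on the 4 days and ratios to day 0 of 1.61 (1.30 to 2.02), 0.933 (0.734 to 1.20) and 1.01 (0.804 to 1.29). The intervals of the day 2 and day 5 ratios of Ear2 hold 1.

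Chil3 and Arg1 were near the limit of counting at day 0 and stood far higher at day 5. Chil3 had 4.60 CPM (20 UMIs) at day 0, 3.10 (57 UMIs) at day 1 and 20.4 at day 2; its 104 CPM (98.8 to 109) of day 5 was 22.6-fold day 0 (14.6 to 37.1) and 33.5-fold day 1 (25.7 to 44.4). Arg1 had 2.07 CPM (9 UMIs) at day 0, 7.51 at day 1 and 8.55 at day 2, and its 52.2 CPM (48.6 to 56.0) of day 5 was 25.2-fold day 0 (13.2 to 55.4) and 6.95-fold day 1 (5.79 to 8.39). Days 1 and 2 differed little for Arg1, with a ratio of day 1 to day 2 of 0.878 (0.676 to 1.14). With at least 1000 genes per barcode, day 0 kept 96 barcodes with 0 UMIs of both genes. Setting these counts to a floor of 3 UMIs gave day 5 folds of 9.06 for Chil3 and 4.47 for Arg1, which rest on the floor. Among genes of at least 10 CPM on either day, 0 of the members passed 2-fold at day 1, Chil3 at day 2, and Chil3 and Arg1 at day 5; of all such genes 2.57% passed at day 1, 2.77% at day 2 and 6.43% at day 5. Arg1, under that limit before day 5, stood at 3.63-fold (1.86 to 8.10) and 4.13-fold (2.09 to 9.29) of day 0 at days 1 and 2. The highest barcode held 32 of the 138 Arg1 UMIs of day 1 and 42 of the 104 of day 2, which these intervals do not cover. Among the companions, Plac8 went from 8.74 CPM at day 0 to 421 CPM at day 5 and Spp1 from 111 to 1161 CPM, while Cd163 stood at 239 and 128 CPM and Sparc at 887 and 545 CPM.

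**Figure D1:**
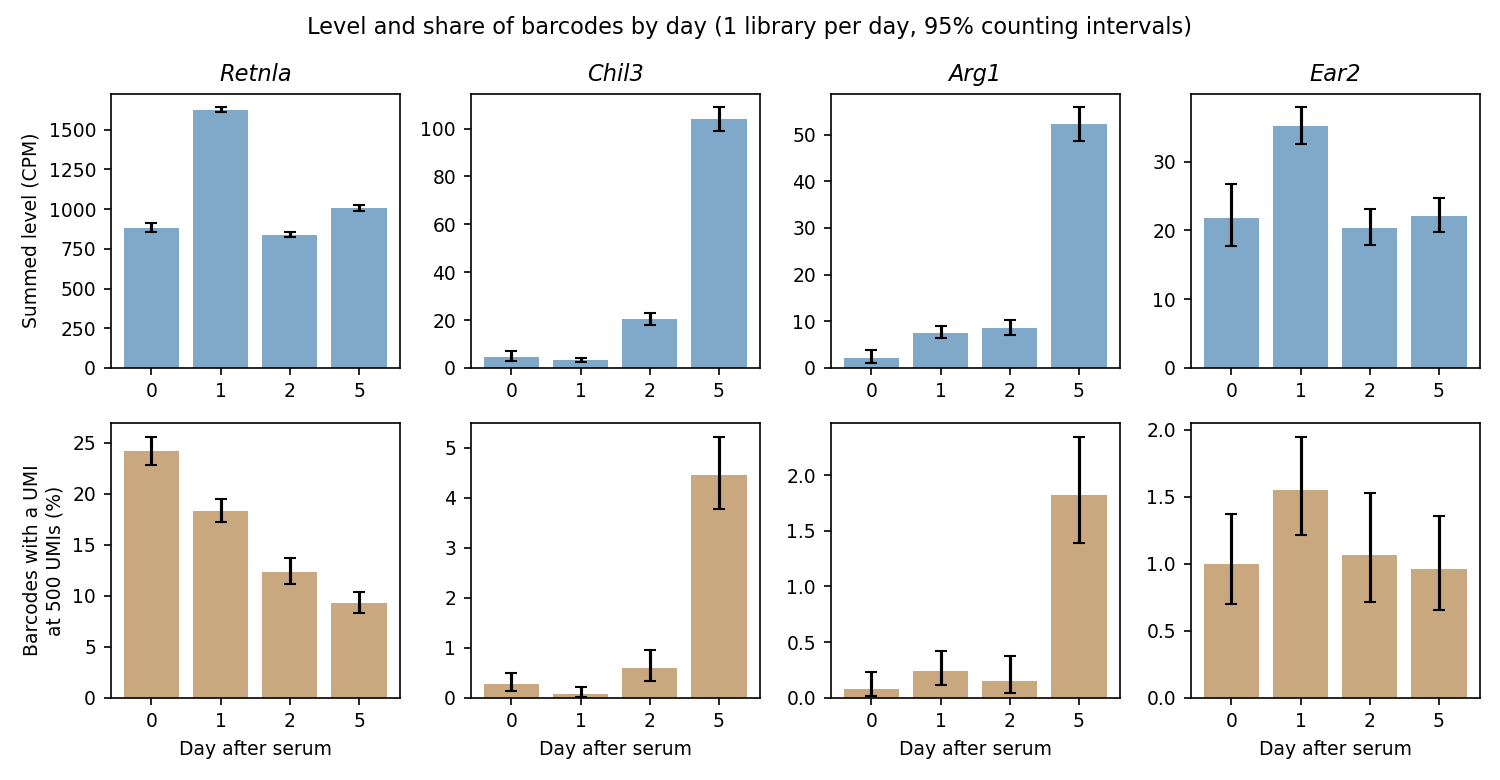
Upper panels: summed level of Retnla, Chil3, Arg1 and Ear2 (CPM) by day after serum; lower panels: share of barcodes with a UMI after each barcode was thinned to 500 UMIs, with bars for 95% counting intervals and 1 library per day. Chil3 and Arg1 stand highest at day 5 (104 and 52.2 CPM), whereas Retnla and Ear2 stand highest at day 1 (1628 and 35.2 CPM).

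The share of barcodes with Retnla depended on the number of UMIs asked for. At an equal depth of 500 UMIs, which kept every retained barcode, 24.2, 18.3, 12.4 and 9.30% of barcodes held Retnla on the 4 days; without thinning the shares were 38.3, 39.7, 32.0 and 30.4%. With at least 2 of the 500 UMIs they were 9.07, 11.2, 6.91 and 4.95%, and with at least 5 they were 1.13, 6.40, 3.82 and 2.66%, so day 1 was then the highest. Chil3 was in 4.45% of thinned barcodes at day 5 (12.5% unthinned) and in at most 0.588% on the other days. Arg1 was in 1.82% at day 5 (7.02% unthinned) and in at most 0.237% before. Ear2 was in 0.996, 1.55, 1.07 and 0.958% of thinned barcodes (2.29, 4.72, 3.16 and 3.59% unthinned), with overlapping intervals.

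A single Retnla UMI says little about the cell. At day 5, Retnla was found in 26.2% of 408 barcodes with at least 5 Plac8 UMIs, in 29.8% of 584 with at least 5 Sparc UMIs and in 25.6% of 262 with at least 10 Spp1 UMIs, close to the 30.4% of all barcodes, at median depths of 4036, 4714, 4043.5 and 3897 UMIs. Barcodes with at least 3 Cd163 UMIs held it in 45.5% (122 of 268). A share at this level is not read as expression; whether such UMIs came from the cell or from free RNA was not tested. Of Retnla-positive barcodes 60.2% held 1 UMI. At 10 or more Retnla UMIs the same sets held it in 1.23, 3.77, 2.29 and 15.3% of barcodes. Chil3 stood apart between these sets at day 5 (46.1% with Plac8, 1.71% with Sparc, 16.8% with Spp1, 2.24% with Cd163), as did Arg1 (4.90, 4.28, 30.9 and 2.61%) and Ear2 (6.62, 0.685, 1.53 and 2.24%).

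Retnla was concentrated in few barcodes, and more so with time. The highest barcodes of the 4 days held 45, 392, 199 and 1056 UMIs, and at day 5 Retnla made up 12.9% of that barcode's UMIs. The 1% of barcodes with the most Retnla held 16.5, 28.4, 33.3 and 57.7% of its UMIs on the 4 days. At day 5 the 2 highest barcodes alone held 7.04 and 6.85%. At least 10 Retnla UMIs were in 53, 511, 178 and 164 barcodes, and at least 100 in 0, 71, 26 and 38. The values in this paragraph are not at equal depth: the median barcode held 1057 UMIs at day 0 and 3607.5 to 4183.5 later. The 71 of day 1 held 38.3% of that day's Retnla UMIs, and the 38 of day 5 held 62.0%. No member other than Retnla passed 42 UMIs in any barcode: the highest values at day 5 were 22 UMIs for Chil3, 30 for Arg1 and 15 for Ear2.

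At day 5, 785 of 983 Retnla-positive, 276 of 405 Chil3-positive and 124 of 227 Arg1-positive barcodes held no other member, against 43 of 116 Ear2-positive ones. Such counts depend on how common the members are (30.4, 12.5, 7.02 and 3.59% of barcodes, in the order named). No expected number was set against them, so they are not read as exclusion. At least 1 of them was found in 39.9, 43.2, 35.7 and 45.3% of barcodes at days 0, 1, 2 and 5, and at least 2 of them in 1.35, 2.65, 1.73 and 7.30%. Pairs without a further member at day 5 were Retnla with Chil3 in 74 barcodes, Retnla with Arg1 in 63, Retnla with Ear2 in 32, Chil3 with Arg1 in 20, Chil3 with Ear2 in 15 and Arg1 with Ear2 in 2. There were 29 barcodes with 3 members and 1 with all 4. On days 0 to 2 no barcode held 4 members and at most 2 held 3.

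How often 2 genes shared a barcode was set against the number expected if they were independent, the product of their shares and the number of barcodes. At day 5, Retnla and Chil3 shared 93 barcodes against 123 expected, a ratio of 0.756 (0.610 to 0.926), which is 9.46% of Retnla-positive and 23.0% of Chil3-positive barcodes. Retnla and Arg1 shared 80 against 69.0 (1.16, 0.920 to 1.44), and Chil3 and Arg1 28 against 28.4 (0.985, 0.655 to 1.42), so neither pair departed from independence beyond counting error. Ear2 was found more often than expected with Retnla (55 barcodes, 1.56, 1.18 to 2.03) and with Chil3 (29 barcodes, 2.00, 1.34 to 2.87), and with Arg1 in 14 barcodes (1.72, 0.940 to 2.89). Expected counts built within 10 bins of depth gave 0.762, 1.11, 0.973, 1.43, 2.09 and 1.501 for these pairs in the order named. Asking for 2 UMIs of both genes gave 0.323 for Retnla with Chil3, 1.87 for Retnla with Arg1, 2.38 for Retnla with Ear2 and 1.29 for Chil3 with Ear2.

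Asking for 10 Retnla UMIs, a limit chosen after the values were seen, separated the pairs further at day 5. The ratio became 0.244 for Retnla with Chil3, 2.26 with Arg1, 2.89 with Ear2 and 2.3001 with Cd163. Of 164 such barcodes, 3.05% held Chil3, 15.9% Arg1, 10.4% Ear2 and 56.1% Cd163, against 13.9, 6.53, 2.71 and 20.6% of the 2252 barcodes with no Retnla. Both sets had like depths, 4010 and 3814 UMIs in the median barcode.

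At day 5 Chil3 and Ear2 were found more often than expected with Plac8, Arg1 with Spp1 and Retnla with Cd163. For Chil3, 77.8% of Chil3-positive barcodes held Plac8, against 18.1% of the others, 3.05 times the expected number (2.72 to 3.40), and 38.1% of Plac8-positive barcodes held Chil3. Chil3 was rare with Cd163 (0.253, 0.164 to 0.374) and Sparc (0.262, 0.177 to 0.374). Arg1 went with Spp1 (67.8% of Arg1-positive barcodes, 2.00 times expected, 1.70 to 2.34, and 4.57 after thinning to 500 UMIs; 14.0% of Spp1-positive ones) and was seldom with Cd163 (0.506) or Sparc (0.514). Ear2 went with Plac8 (41.4% of Ear2-positive barcodes, 1.62, 1.20 to 2.15) and was rare with Sparc (0.305, 0.146 to 0.5605). Retnla at 1 UMI went with Cd163 (33.2%, 1.36, 1.22 to 1.52) and lay near independence with Sparc (1.04) and Spp1 (0.950).

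Against the other genes of day 5, such ratios were not rare. Of 10736 genes in at least 20 barcodes, the interval of the ratio lay above 1 for 10.3% with Retnla, 8.69% with Chil3, 7.39% with Arg1 and 7.33% with Ear2. It lay below 1 for 0.317% with Retnla, 18.3% with Chil3, 3.32% with Arg1 and 2.31% with Ear2. Of the 7 other genes followed here, 2 lay above 1 with Retnla (Cd163 and Ear2) and 2 below (Chil3 and Plac8), 2 above with Chil3 and 3 below, 1 above with Arg1 and 2 below, and 3 above with Ear2 and 1 below. Within bins of depth the interval of Retnla with Plac8 (0.879, 0.767 to 1.004) holds 1.

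On the earlier days the Chil3 pairing with Plac8 was already there, in few barcodes. Plac8 was in 4 of 16 Chil3-positive barcodes at day 0, 12 of 21 at day 1 and 27 of 35 at day 2, where 1.02 and 0.930% of the other barcodes of days 1 and 2 held it. Retnla and Cd163 shared 1.18, 1.16 and 1.18 times the expected number at days 0, 1 and 2, and Retnla and Sparc 0.920, 0.885 and 0.877 times. Ear2 and Plac8 shared 23 barcodes at day 1 against 2.78 expected and 9 at day 2 against 1.64. Chil3 and Ear2 shared 4 barcodes at day 1 against 0.991 expected (4.04, 1.10 to 10.3; 3.23, 0.879 to 8.26 within bins of depth) and 6 at day 2 against 1.11 (5.43, 1.99 to 11.8). Chil3 with Arg1 and Arg1 with Ear2 shared at most 2 barcodes on each of these days.

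**Figure D2:**
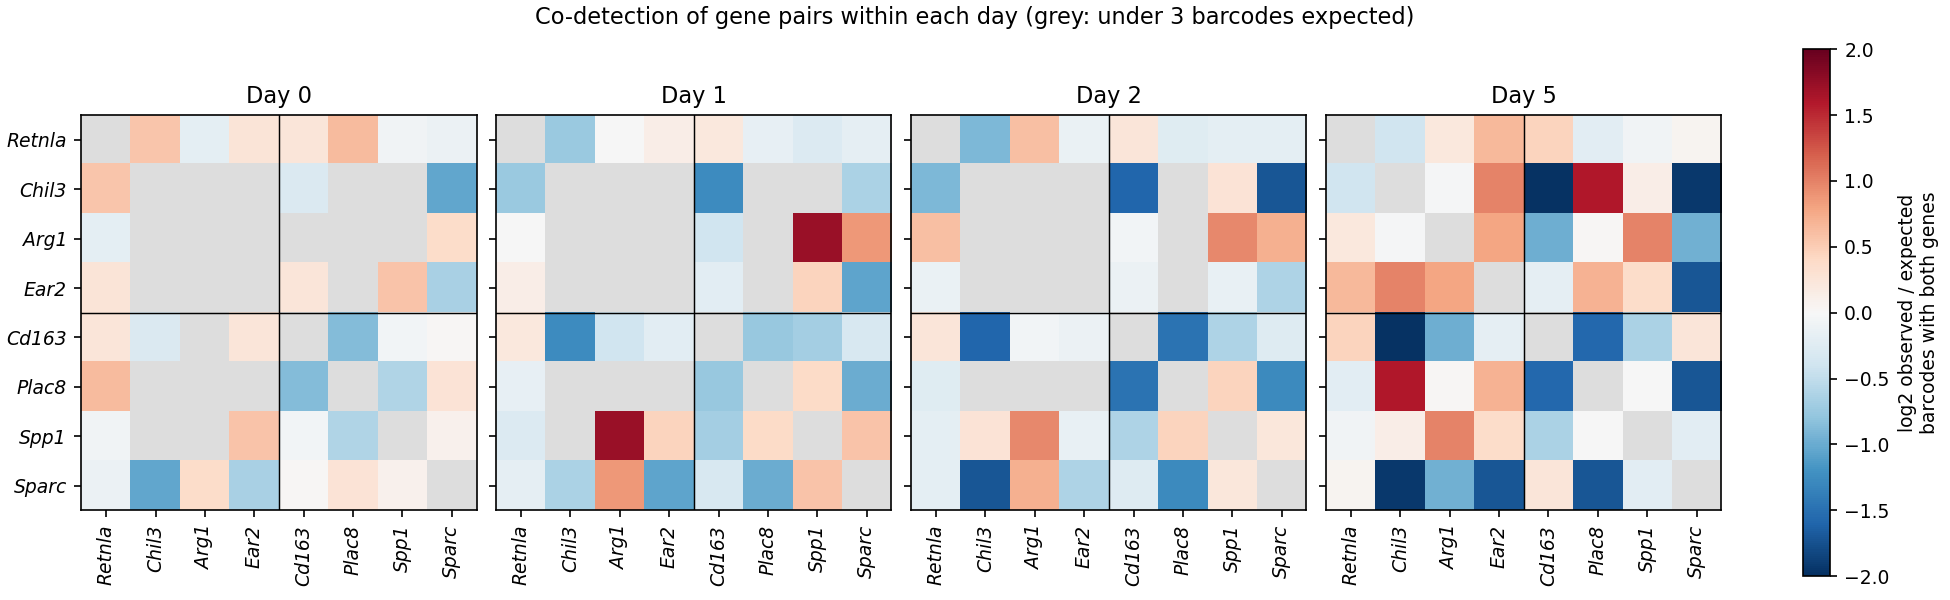
Observed over expected number of barcodes with both genes (log2, red above and blue below independence) for the 4 members and the 4 companions on each day, grey where fewer than 3 barcodes were expected. At day 5, Chil3 with Plac8 (3.05) and Arg1 with Spp1 (2.00) are the reddest member pairs with companions, and Chil3 with Cd163 (0.253) and with Sparc (0.262) the bluest.

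Arg1 stood with Sparc at days 1 and 2 and apart from it at day 5. Sparc was in 29 of 43 Arg1-positive barcodes at day 1 (67.4%, against 36.7% of the others) and in 22 of 29 at day 2 (75.9 against 46.2%), but in 33 of 227 at day 5 (14.5 against 29.3%). Observed over expected was 1.83 (1.22 to 2.62), 1.63 (1.02 to 2.47) and 0.514 (0.354 to 0.722). Arg1-positive barcodes were deeper on the first 2 of these days (median 5539 against 3593 UMIs at day 1, 5900 against 4177 at day 2, 4117 against 3869.5 at day 5). Within bins of depth the ratios were 1.33 (0.894 to 1.92), 1.39 (0.873 to 2.11) and 0.510 (0.351 to 0.716), and the first 2 intervals then hold 1. TdTomato was in 74.4, 82.8 and 28.2% of Arg1-positive barcodes on these days and in 47.2, 59.6 and 40.9% of all barcodes.

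Barcodes rich in Retnla at days 1 and 2 held more of the Cd209 lectin transcripts. At day 1, the leading genes in the 511 barcodes with at least 10 Retnla UMIs against the 2797 with none were the lectins Cd209g (12.4-fold, 219 against 17.7 CPM), Cd209b (9.67-fold), Cd209f (9.08-fold) and Cd209d (4.48-fold), with Mucl1 (7.75-fold), the chemokines Ccl8 (3.97-fold) and Ccl6 (3.66-fold) and the galactose lectin Clec10a (3.45-fold). Day 2 gave Mucl1 (57.5-fold), Cd209b (7.49-fold), Cd209f (7.06-fold), Cd209g (6.82-fold) and Cd209d (5.77-fold), again with Ccl6, Ccl8 and the endothelin receptor Ednrb. Mucl1 was in 2.74 and 5.62% of these barcodes, so its level came from few of them. Of 10 interstitial markers 2 (Ccl24 and Cd163) were at least 2-fold higher on both days and 0 lower, and of 7 lining markers 4 and 5 were lower. Of all genes of at least 10 CPM over all barcodes, 0.614 and 1.21% were higher and 2.27 and 4.34% lower. At day 0 only 53 barcodes passed, with leading genes at 5 to 9 UMIs each, and they are not described.

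At day 1, Cd163 was more frequent and Sparc and Spp1 were less frequent in barcodes with much Retnla. From 0 to 100 or more Retnla UMIs, Cd163 was in 41.0, 44.6, 54.2, 56.1, 62.0, 64.2 and 80.3% of barcodes over the 7 bands plotted, and Sparc in 39.8, 44.2, 34.0, 22.0, 18.9, 15.1 and 7.04%. Spp1 was in 10.1% of barcodes with no Retnla, 11.8% with 1 UMI and 2.82% with 100 or more, and Plac8 in at most 1.83% in any band. Cd209f went from 5.11% of barcodes with none to 33.8% at 100 or more, and the mannose receptor Mrc1 from 74.9 to 92.96%. Arg1 was in 0.930% of barcodes with no Retnla and in 0 of the 71 with 100 or more (exact upper bound 5.06%).

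**Figure D3:**
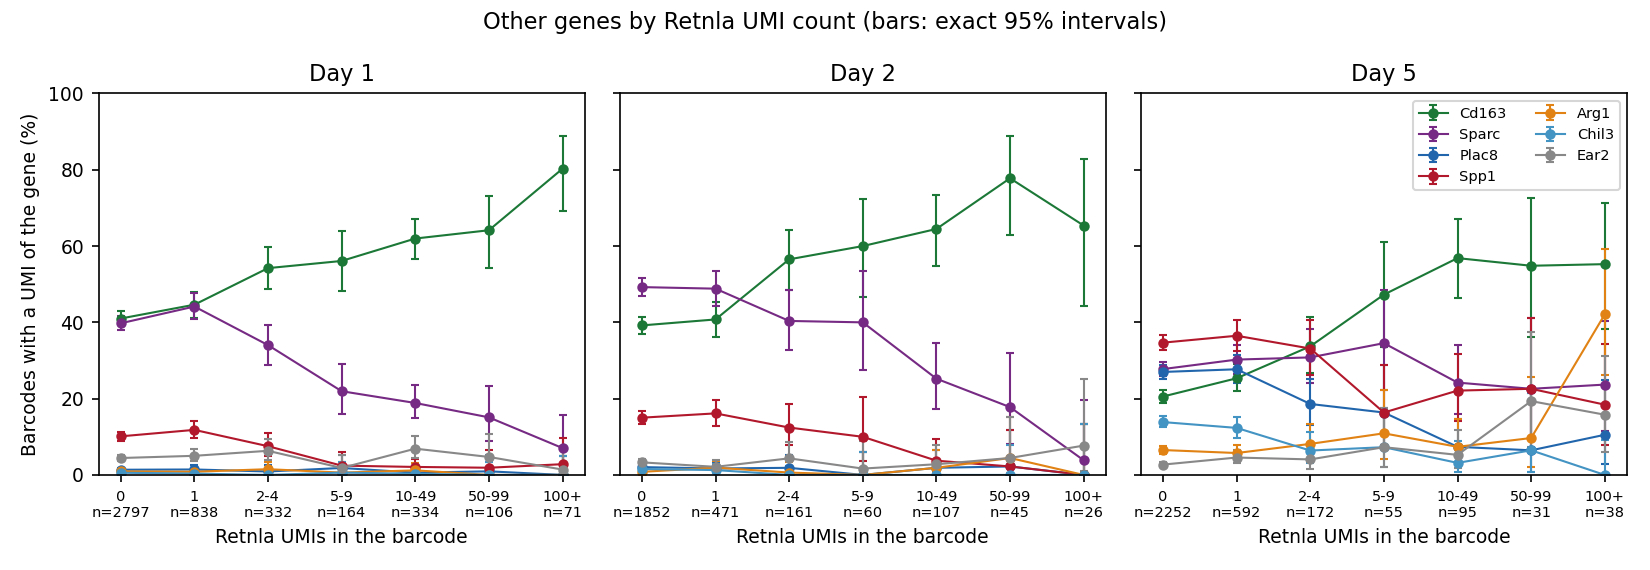
Share of barcodes (%) with a UMI of each of 7 genes by the number of Retnla UMIs in the barcode, at days 1, 2 and 5, with exact 95% intervals and the number of barcodes under each band. Cd163 is more frequent with more Retnla (41.0 to 80.3% at day 1) and Sparc less frequent at day 1 (39.8 to 7.04%), whereas Arg1 stands high in the last band of day 5 alone (42.1%).

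At day 5 the Retnla-rich barcodes carried other genes as well. Against barcodes with no Retnla, the 164 with at least 10 UMIs were led by Rnase2a, a ribonuclease of the Ear2 family (459 against 2.73 CPM, 168-fold, 113 to 259), the chemokine Ccl17 (18.6-fold), the lipoxygenase Alox15 (27.4-fold), Mucl1 (16.8-fold), the arginine transporter Slc7a2 (11.6-fold, 9.65 to 14.0), Cd209f (12.5-fold), Asgr2 (21.2-fold) and the amino acid oxidase Il4i1 (11.8-fold). Rnase2a was in 18.3% of these barcodes and Ccl17 in 10.98%, so the Ccl17 level came from few of them. In barcodes with at least 10 Retnla UMIs, Rnase2a stood at 17.3 CPM at day 1, 7.31 at day 2 and 459 at day 5, and Slc7a2 at 21.7, 40.9 and 286 CPM. Cd209f had 450, 235 and 113 CPM on these days, while Cd163 stood at 610, 561 and 359 CPM.

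**Figure D4:**
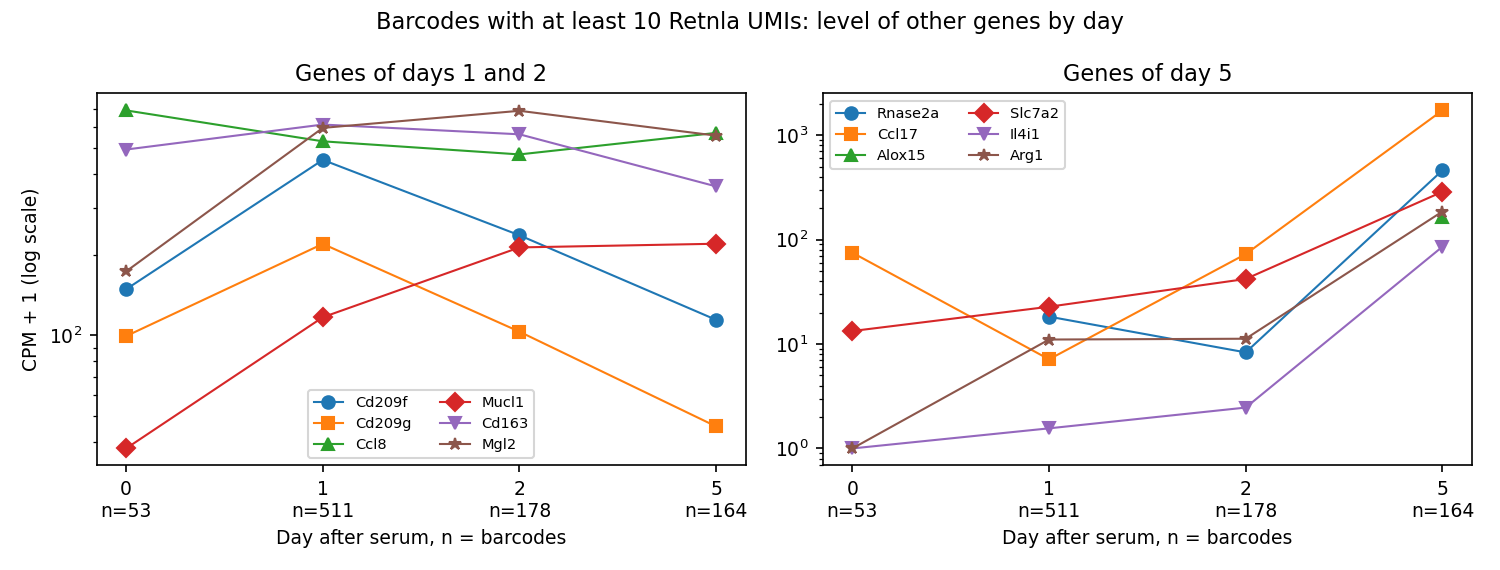
Level (CPM + 1, log scale) of 12 genes in barcodes with at least 10 Retnla UMIs by day, with the number of barcodes under each day; a gene unlisted on a day has no point. Rnase2a, Slc7a2 and Arg1 stand highest at day 5 (459, 286 and 185 CPM), and Cd209f stands highest at day 1 (450 CPM).

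Genes known from alternative activation went with Retnla at day 5. Of the 15 genes of a list of others of that state that reached 10 CPM over all barcodes of the day, 8 were at least 2-fold higher in the 164 barcodes (Alox15, Ccl17, Slc7a2, Ccl24, Mgl2, Igf1, Clec10a and Mrc1) and 1 lower (Tgm2), with a median log2 ratio of 1.11 against -0.06 over all such genes. Of all 7092 such genes 1.88% were higher and 5.1% lower. A filter of 10 CPM in either set of barcodes let in 4 more that are low elsewhere (Ccl22, Pdcd1lg2, Socs2 and Flt1), all higher, and gave 12 of 19, against 4.12% higher and 4.83% lower of all 7605 genes; these 4 passed only through the set where they are high. Interstitial macrophage markers were higher for 5 of 10 (Ccl24, Cd163, Lyve1, Mrc1 and F13a1) and lower for 0, lining markers for 0 of 7 either way, and monocyte markers lower for 8 of 10. At 1 UMI few genes went with Retnla: of those of at least 50 CPM, 0, 0.186, 0.186 and 0.222% were at least 2-fold higher at days 0, 1, 2 and 5, and 0.0392, 0, 0.0743 and 0.148% lower.

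Chil3 at day 5 marked barcodes with a monocyte profile. In the 405 Chil3-positive against the 2830 other barcodes, the leading genes were Hp, which encodes the haemoglobin-binding haptoglobin (7.24-fold, 6.71 to 7.82), Cd177 (8.72-fold), the protease inhibitor Slpi (6.87-fold), Plac8 (6.19-fold, 1596 against 258 CPM), Thbs1 (6.06-fold), the classical monocyte antigen Ly6c2 (6.02-fold), Lrg1 (7.50-fold) and Mmp8 (7.52-fold). All 10 monocyte markers were at least 2-fold higher (median log2 ratio 2.37), 9 of 10 interstitial and 7 of 7 lining markers were lower, and of 16 measured genes of alternative activation 0 were higher and 11 lower, among them Mrc1, Mgl2, Slc7a2 and Clec10a. The background was 3.59% higher and 10.3% lower over 7361 genes of at least 10 CPM in either set (2.99 and 9.94% of those at that level over all barcodes, where 10 of the 15 alternative activation genes left were lower), and 5.42% higher (155 genes) and 6.82% lower (195 genes) over 2858 genes of at least 50 CPM. TdTomato was in 25.7% of Chil3-positive barcodes, and the monocyte chemokine receptor Ccr2 in 87.9%. Neutrophil markers were also higher (138 against 36.2 CPM), with Ly6g unlisted. Of those at 10 CPM over all barcodes, 2 of 2 passed 2-fold (Mmp8 and S100a8). The filter on either set gave 3 of 3, as Csf3r passed only through the set where it is high. The part of these markers in the result was not tested.

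Not every Plac8-rich barcode held Chil3. Of the 408 barcodes with at least 5 Plac8 UMIs at day 5, 188 held Chil3 and 220 did not, at median depths of 3974.5 and 4154.5 UMIs. Ly6c2 stood at 719 CPM in the first and 661 CPM in the second, Slpi at 480 and 310 CPM, and the dendritic cell lectin Cd209a at 16.4 and 142 CPM. Retnla stood at 137 and 1382 CPM, and 1 barcode gave 1028 of the 1367 Retnla UMIs behind the second value.

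Arg1 at day 5 was found in Retnla-rich and in Spp1-rich barcodes, and these overlapped in 4. Among 227 Arg1-positive barcodes, 26 held at least 10 Retnla UMIs, 81 held at least 10 Spp1 UMIs and 124 held neither, with the 4 counted in both sets. Of all 3235 barcodes of the day, 164 held at least 10 Retnla UMIs, 262 at least 10 Spp1 UMIs and 6 both. A small overlap is thus not particular to Arg1-positive barcodes, and no expected number was set against either overlap. These limits were chosen after the values were seen, so Retnla and Spp1 themselves differ by choice. At days 1 and 2, 37 of 43 and 22 of 29 Arg1-positive barcodes held neither. Without the split, the leading genes against the 3008 other barcodes were Rnase2a (31.2-fold), Retnla (8.65-fold, 8.38 to 8.94), the neutrophil chemokine Cxcl3 (6.28-fold), Slc7a2 (5.72-fold), the caveolin Cav1 (5.34-fold), Spp1 (4.43-fold, 4.28 to 4.58), AA467197 (4.43-fold) and Ccl17 (3.76-fold). The 3 barcodes with the most Retnla (1056, 1028 and 625 UMIs) all held Arg1, at 2, 1 and 3 UMIs. The Retnla fold leans on them, which its counting interval does not cover.

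Other genes differed between the 2 sets too, beyond Retnla and Spp1. Without the 4 barcodes in both, the Retnla set held 271 Rnase2a, 168 Slc7a2 and 99 Mgl2 UMIs, and the Spp1 set 0, 2 and 1. Rnase2a, Slc7a2 and Mgl2 were also higher in the Retnla-rich barcodes of day 5 as a whole. Their difference is therefore not independent of the split by Retnla. The MHC class II gene H2-Ab1 was 6.74-fold higher in the first (6.01 to 7.57), AA467197 7.29-fold, Sparc 20.6-fold (12.8 to 35.0) and TdTomato 5.75-fold (3.68 to 9.22). The lipid droplet gene Plin2 was at 0.193-fold (0.117 to 0.302) and Cav1 at 0.262-fold, and the cystine transporter Slc7a11 had 0 UMIs in the first and 68 in the second. Ccr2 was at 0.447-fold (0.302 to 0.647). Median depth, with the 4 included, was 5886.5 UMIs in the Retnla set and 3909 in the Spp1 set; its part in the result was not tested.

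Among Retnla-rich barcodes of day 5, several genes differed between those with and without Arg1. The first were deeper, with a median of 5886.5 against 3649.5 UMIs, and held 2.82-fold more Retnla (2.73 to 2.92). The part of either in the result was not tested. The 3 barcodes with the most Retnla (1056, 1028 and 625 UMIs) were among those with Arg1, which the counting interval does not cover. Rnase2a was in 84.6% of the 26 with Arg1 and in 5.80% of the 138 without (13.3-fold by CPM, 10.2 to 17.5), and Slc7a2 in 73.1 and 10.9% (11.9-fold, 8.54 to 16.8). Cd163 was lower by CPM (0.151-fold, 0.0772 to 0.269), and Cd209f was in 0 and 15.2%. Mgl2 did not depart beyond counting error (1.12-fold, 0.889 to 1.40). Along the Retnla bands of day 5, Arg1 was in 6.53, 5.74, 8.14, 10.9, 7.37, 9.68 and 42.1% of barcodes, the last value being 16 of 38 (26.3 to 59.2), and Rnase2a in 0.355, 0.507, 4.65, 5.45, 6.32, 12.9 and 52.6%.

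**Figure D5:**
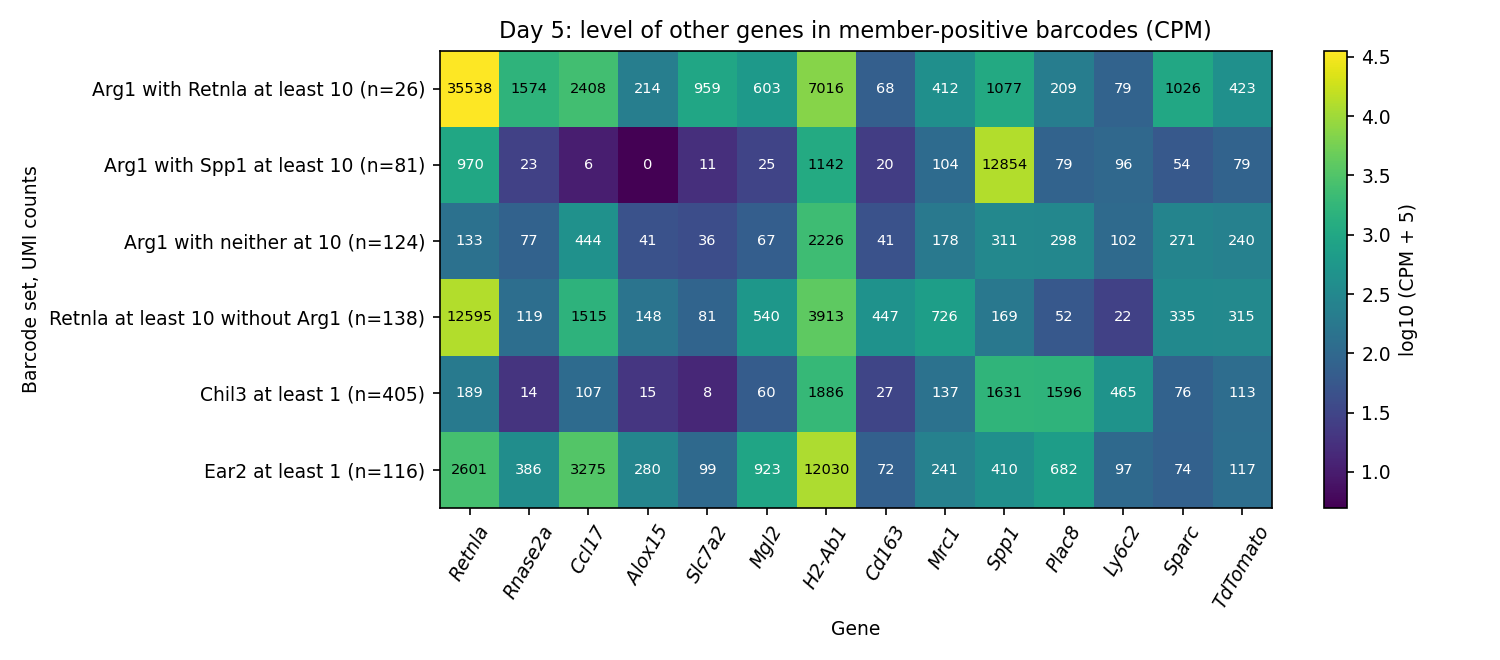
Level (CPM, printed in each cell and coloured as log10 of CPM + 5) of 14 genes in 6 sets of day 5 barcodes defined by the members, with the number of barcodes per set; 4 barcodes are in both of the first 2 sets. Rnase2a, Slc7a2 and Mgl2 are high where Arg1 goes with Retnla (1574, 959 and 603 CPM) and low where it goes with Spp1 (22.6, 11.3 and 25.4 CPM, from 8, 4 and 9 UMIs, of which 0, 2 and 1 lie outside the 4 shared barcodes).

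A minority of the hypoxia genes were higher with Arg1 at day 5. Of 16 measured, 6 were at least 2-fold higher in Arg1-positive barcodes (Vegfa 4.55-fold, Ankrd37 2.63-fold, Bnip3 2.24-fold, Mif 2.09-fold, Pgk1 2.07-fold and Ero1l 2.04-fold) and 0 lower, with a median log2 ratio of 0.70 against -0.02 for all genes. Of arginine and polyamine genes 2 of 15 were higher, Slc7a2 and Odc1 (2.42-fold), the enzyme that takes ornithine into polyamines. Of alternative activation genes 5 of 16 were higher and 3 lower. The background was 1.85% higher and 4.26% lower over 7468 genes of at least 10 CPM in either set (1.17 and 4.1% of those at that level over all barcodes, where 4 of the 15 alternative activation genes left were higher and 3 lower), and 1.64% higher (46 genes) and 2.35% lower (66 genes) over 2804 genes of at least 50 CPM. Interstitial markers were lower for 6 of 10, lining markers for 3 of 7.

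MHC class II genes were higher in Ear2-positive barcodes: 4 of the 4 that reached 10 CPM over all barcodes (H2-Ab1, Cd74, H2-Aa and H2-Eb1) passed 2-fold at days 1, 2 and 5. Over all such genes 2.78, 2.86 and 2.72% were higher and 9.81, 9.6 and 8.91% lower on these days. The same 4 genes also passed 2-fold in the 85 Ear2-positive barcodes of day 0. Their median log2 ratio was 1.25 there, against 0.03 over all such genes. In the 219 Ear2-positive barcodes of day 1 the leading genes were Ccl17 (16.2-fold, 14.1 to 18.5), Plac8 (15.3-fold), Mucl1 (14.7-fold), the lectin Clec4b1 (9.99-fold) and Cd209a (8.07-fold). In the 86 of day 2 they were Pglyrp1 (43.2-fold), Mmp12 (16.5-fold), Mucl1 (15.0-fold), Chil3 (11.5-fold) and Cd209a (10.3-fold), and in the 116 of day 5 Ccl17 (53.1-fold, 49.1 to 57.6), Alox15 (50.5-fold), Mmp12 (34.0-fold), Slc27a3 (32.8-fold), Rnase2a (26.6-fold) and AA467197 (15.4-fold). Haemoglobin genes were left out of every ranking of leading genes and are given below for day 5. Over genes of at least 50 CPM, 4.58, 4.63, 4.33 and 4.23% were at least 2-fold higher at days 0, 1, 2 and 5, and 4.26, 8.45, 5.24 and 5.4% lower. The 85 barcodes of day 0 held at most 2 Ear2 UMIs each and most of their leading genes had under 15 UMIs.

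At day 5, 2 of 3 nonclassical monocyte markers of that level (Itgal and Spn) were at least 2-fold higher in Ear2-positive barcodes and 0 lower, and of 15 alternative activation genes 6 were higher (Ccl17, Alox15, Mgl2, Cd209a, Slc7a2 and Cd200r1) and 4 lower. A filter of 10 CPM in either set of barcodes gave 6 of 7 and 9 of 19 higher, the added genes passing through the set where they are high. Lining markers were lower for 6 of 7 and interstitial markers for 7 of 10. Of 10 monocyte markers at 10 CPM over all barcodes of day 5, 1 was higher (F10) and 0 lower. At days 1 and 2, 4 of 6 and 7 of 8 were higher, with 1 lower (Vcan) on each day. Of 15 alternative activation genes at that level, 0, 4 and 4 were higher at days 0, 1 and 2, and 3, 8 and 4 lower. Their median log2 ratios were -0.30, -1.08, -0.86 and -0.09 at days 0, 1, 2 and 5. Over all such genes the medians were 0.03, -0.16, -0.13 and -0.15. Of all 7562 genes under that second filter 5.24% were higher and 8.6% lower. Proliferation markers were higher for 4 of 5, and haemoglobin genes summed to 3630.4 against 5.89 CPM, from few barcodes (Hbb-bs in 3.03% of the 99 with under 10 Retnla UMIs and in 0 of the 17 with more). The part of these in the result was not tested.

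The 17 Ear2-positive barcodes of day 5 with at least 10 Retnla UMIs held several of these genes more often. Alox15 was in 76.5% of them against 12.1% of the 99 others, Ccl17 in 64.7 against 28.3%, AA467197 in 82.4 against 24.2%, Il4i1 in 64.7 against 10.1% and Arg1 in 47.1 against 6.06%. Plac8 was in 23.5 against 44.4%, and Chil3 in 11.8 against 27.3%. Their median depth was 7174 UMIs against 4227, and its part in these shares was not tested.

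In the summed libraries the receptor chain Il4ra stood at 53.1, 59.9, 67.3 and 70.3 CPM on the 4 days, and Stat6 at day 5 was 1.08-fold day 0 (0.911 to 1.29). The ligands Il13 and Il33 were listed on no day, and Il4 at day 1 alone. Of 12 measured genes of interleukin-4 and interleukin-13 signalling, 3 were at least 2-fold higher at day 5 than at day 0 (the shared cytokine receptor chain Il2rg 5.78-fold, Cebpb 2.64-fold, Jak2 2.17-fold) and 1 lower (the histone demethylase Kdm6b, 0.384-fold). Of 15 measured other genes of alternative activation, Tgm2 (2.29-fold) and Cd209a (2.097-fold) were higher and Ccl24 (0.361-fold) lower, with a median log2 ratio of 0.01 against 0.11 over all genes. The background was 6.43% higher and 3.34% lower.

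Apart from Arg1, the genes of arginine and polyamine metabolism that passed 2-fold were enzymes of the polyamine branch. Of 15 measured genes of arginine and polyamine metabolism, 4 were at least 2-fold higher at day 5, Arg1 itself (over 10 CPM at day 5 alone), the spermine oxidase Smox (4.35-fold), Odc1 (3.21-fold) and the spermine synthase Sms (2.101-fold), and 0 were lower, with a median log2 ratio of 0.30. Asl (1.13-fold), Ass1 (1.37-fold) and Slc7a2 (1.04-fold), which make or carry arginine, did not pass. Nos2, which competes for arginine, was listed on no day. Of 15 hypoxia genes 4 were higher (Eno1 3.09-fold, Slc2a1 2.76-fold, Hif1a 2.74-fold, Pfkl 2.46-fold) and 0 lower, median 0.49. Over all genes of at least 10 CPM on either day, 6.43% were higher and 3.34% lower. Their median log2 ratio was 0.11. Of 5 measured genes on the list of the members' families, Chil3 alone passed 2-fold (under 10 CPM at day 0). Rnase2a was not on that list. The ribonuclease Rnase4 was at 0.609-fold (0.584 to 0.636) and Ang at 0.810-fold. Retnlg, Retnlb, Chil4, Ear6 and Ear10 were listed on no day, and Retn at day 2 alone with 11 UMIs.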

How the data were processed

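Single-cell RNA of sorted synovial cells was captured with the 10x Chromium 3′ kit, version 2, per the labels, and 1 library per day was read, 4 in all. The deposited values are UMI counts per gene and barcode. The submitters' processing notes name Cell Ranger 2.1.0, Seurat 2.3, R 3.5.2 and mm10 without their roles. As deposited, each library lists only genes found in at least 5 barcodes. The members and lists were chosen with earlier results of these data known.

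A barcode was analysed if it held 500 or more genes and its mitochondrial share was below 10%. Counts were summed to CPM with exact Poisson intervals, shares with Clopper-Pearson intervals, and ratios with intervals from the binomial split of their summed counts, all at 95% and for counting error only. Gene folds within a day compare barcodes with and without the member. Named were the members and companions, the 8 genes with the highest ratio for each member and day with at least 50 positive barcodes (genes of at least 50 CPM, ranked with 5 CPM added), the paralogs, and up to 4 genes per list. Further list genes, and the genes given for the splits of Arg1, Ear2 and Plac8 barcodes, were picked after their values were seen. No doublet caller was run, and barcodes of high depth were left out as an alternative. With 1 library per day there was no test between days and no p-value is given.

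Limits of 10 or 100 Retnla UMIs, the splits of Arg1 and Ear2 barcodes and the sets by Plac8, Sparc, Spp1 and Cd163 were chosen after the values were seen. Retained libraries held 4347517 to 18373038 UMIs. Alternatives were other limits on genes, mitochondrial share and UMIs, thinning to 500 or 1500 UMIs, median-ratio scaling, averaging per barcode, expected numbers within bins of depth, a filter on the level over all barcodes (added after seeing the data), and no filter on low values. Python 3.11.15 with NumPy 2.4.6, SciPy 1.17.1, pandas 2.3.3, matplotlib 3.10.9 and Biopython 1.88 was used. The scripts were tested on simulated data.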

Additional observations from a re-analysis of the deposited data

Results flagged for a closer look

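Arg1 and Sparc stood together on 2 days and apart on another. Observed over expected was 1.83 at day 1 and 1.63 at day 2, with intervals above 1, and 0.514 at day 5, with its interval below 1. The difference between days was not tested. Within bins of depth the values were 1.33, 1.39 and 0.510, and the first 2 intervals then hold 1.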

How the results depend on the processing

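No paired analysis was possible because each day had 1 library. The settings that moved or reversed a value were these, and where no construction shows it the cause was not tested. With at least 1000 genes per barcode, day 0 kept 96 barcodes with 0 Chil3, 0 Arg1 and 2 Ear2 UMIs. Setting the counts of 0 to the floor of 3 UMIs gave Arg1 ratios to day 0 of 0.615 and 0.762 at days 1 and 2. These values rest on the floor and give no direction. The day 5 ratios were 4.47 for Arg1 and 9.06 for Chil3, also resting on the floor, with 2.74 for Ear2 and 1.06 for Retnla. At day 0 under the same limit on genes, Ear2 with Sparc gave 1.45 and Retnla with Sparc 1.04 (both reversed). The day 5 ratio of Retnla was 1.10 with 200 genes, 1.06 with median-ratio scaling, 1.20 as a mean over barcodes and 0.982 without the 2 highest barcodes (reversed), and the day 2 ratio as a mean over barcodes was 1.34 (reversed). With 10 Retnla UMIs, day 5 observed over expected was 0.244 with Chil3, 2.26 with Arg1, 2.89 with Ear2 and 2.3001 with Cd163. With 2 UMIs it was 0.323 for Retnla with Chil3, 1.87 with Arg1, 2.38 with Ear2, 2.05 with Cd163, 1.29 for Chil3 with Ear2, 3.96 for Chil3 with Plac8, 3.23 for Arg1 with Spp1 and 0.0732 for Ear2 with Sparc. Thinned to 500 UMIs it was 0.299 for Retnla with Chil3, 1.64 with Arg1, 2.45 with Cd163, 2.90 for Chil3 with Ear2, 3.95 for Chil3 with Plac8 and 4.57 for Arg1 with Spp1, and Arg1 with Sparc at day 2 gave 0 (reversed). Thinned to 1500 UMIs it was 1.60 for Chil3 with Arg1, 1.85 for Retnla with Cd163, 3.61 for Chil3 with Plac8 and 2.95 for Arg1 with Spp1, and Ear2 with Sparc at day 0 gave 1.02 (reversed). With 2 UMIs the genes at least 2-fold higher with Retnla numbered 1, 14, 21 and 24 at days 0, 1, 2 and 5 and those lower 3, 20, 16 and 44; with Arg1 at day 5 they numbered 72 and 108, and 248 were lower with Ear2. Without the 5% deepest barcodes 231 genes were lower with Ear2 at day 2. Ratios in Retnla-positive barcodes then reversed for Acp5 at day 1 (0.724), Ctsk at day 2 (0.849, and 0.690 with 2 UMIs) and Mmp9 at day 5 (0.572). Of observed over expected values under all alternatives, 350 kept their place, 98 moved and 4 reversed; an expected number under 1 gave no value. Few UMIs limit Chil3 and Arg1 before day 5, and the shallow day 0 library limits every ratio to it.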
